A study of Mus musculus with 6 samples.

Results

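Glutathione transferases join the tripeptide glutathione to reactive compounds, and 10 of their genes outside the mu class were measured in the newborn mouse lens. The 10 genes were taken by name from the alpha (Gsta4), pi (Gstp1), theta (Gstt1, Gstt2 and Gstt3), omega (Gsto1), zeta (Gstz1), kappa (Gstk1) and microsomal (Mgst1 and Mgst3) classes. All 10 were found among the 27179 Entrez gene identifiers of the table. Lens RNA of B6/FVB pups on postnatal day 1 was sequenced in 6 libraries. Their labels put 3 in the group Gclc KO (KO 1 to 3) and 3 in the control group Gclc CON (CON 1 to 3). Gclc encodes the catalytic subunit of the enzyme that starts glutathione synthesis, and the comparison was between lenses labelled as its knockout and controls. The sources used here do not name the Cre line or the altered exons, nor whether CON pups carried a transgene or how many pups gave each library. Separate animals are not named for the libraries, so the p-values speak only of the spread among 6 libraries, which may be technical.

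Cytosolic transferases of the alpha, pi and mu classes conjugate electrophiles such as lipid aldehydes, and those of the theta class act on small halogenated compounds and peroxides. The omega, zeta and kappa enzymes have more specialised chemistry, and the microsomal ones are unrelated membrane proteins that also reduce lipid hydroperoxides. In the lens, glutathione keeps the proteins of the long-lived fibre cells reduced, and conjugation is one way in which it is used up.

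Levels below are normalised reads, meaning reads divided by the size factor of their library. A value with ± is the mean and SD of the n = 3 libraries of a group. Log2 differences subtract CON from KO on the variance-stabilised scale of the table, on which the difference of a gene with few reads is smaller than its fold. A gene was called at a Benjamini-Hochberg adjusted p under 0.05 over all 11468 genes tested with limma. Libraries held from 20361430 (CON 2) to 61219009 (KO 3) reads in genes. Crystallins took 59.5% to 68.4% of them in CON and 40.5% to 47.5% in KO. The targeted gene Gclc had 178, 283 and 173 normalised reads across CON 1 to 3, against 17.9, 72.1 and 58.1 across KO 1 to 3 (log2 difference of -1.01 with an SE of 0.28, adjusted p = 0.0387). All KO values lay below all CON values. Its call was lost when CON 2, CON 3 or any 1 KO library was left out (adjusted p up to 0.132). It was also lost under 6 of 8 other settings (no filter, log2 of normalised reads, the replicate block and voom with each of 3 scalings, adjusted p up to 0.165). All 12 lens markers examined had reads in every library, so the tissue label held, and 11 of them were called lower in KO (5 to 7 when CON 2, CON 3 or any 1 KO library was left out, and 1 without a filter). The 18 macrophage markers summed to 2946 to 5500.2 normalised reads in CON and 9567 (KO 3) to 33562 (KO 1) in KO. Of these, 17 passed the filter on low values and were tested. Adgre1, Cd14 and Fcgr1 passed it only through their KO libraries, so they had to differ to be tested. Over all tested genes 6.91% were called higher, and of the 17 markers 13 were, Adgre1 and Cd14 included. That number was 5 without CON 2 or KO 1, 6 without KO 2, 5 with voom and the size factors, 4 with voom and the reads outside crystallins and 0 without a filter. Markers of pigment cells summed to 8472 to 10588 in CON and 12091 to 18722 in KO (2 of 6 tested called higher). Of these markers, Rpe65 had no reads in any library, and Lrat had none in CON and at most 24.3 in KO. Those of retina summed to 2659 to 4085 in CON and 8051 to 9941 in KO (2 of 6 higher, Rcvrn and Pou4f2 at 0 in CON). Those of endothelium and red cells summed to 5737 to 8092 in CON and 2849 to 5445 in KO (1 of 10 lower), and those of mesenchyme to 1307 to 2326 in CON and 2372 to 3097 in KO (2 higher and 1 lower of 4 tested). The part of these cells in the differences below was not tested. In such bulk samples, fewer cells of a type and less RNA per cell cannot be told apart.

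Of the 10 transferases, Gsta4 and Gstt1 were called higher in KO, none was called lower and 8 were not called. Over all tested genes, 6.91% were called higher and 4.39% lower. At an unadjusted p under 0.05, limma gave 5 members higher and 1 lower, where 15.0% of all tested genes were higher and 11.3% lower. With voom on the recovered reads as with the reported fit 0 members were called lower. In 5 members (Gsta4, Gstt1, Gstt2, Gstt3 and Mgst1) every KO library lay above every CON library, as in 16.9% of all tested genes, and in Gstk1 every KO library lay below, as in 14.1%. The groups overlapped for Gstp1, Gsto1, Gstz1 and Mgst3. All 10 members passed the filter on low values, Gstt3 through its KO libraries alone, so its difference was in part a condition of being tested. The median log2 difference was 0.51 over the members and 0.03 over all genes.

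**Figure D1:**
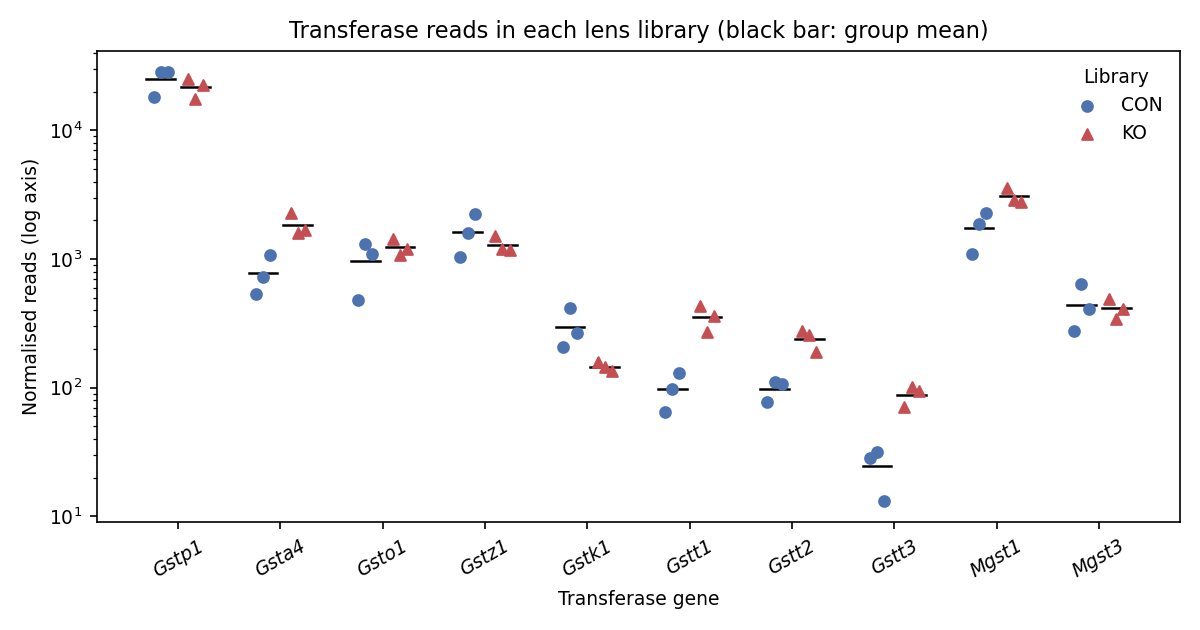
Normalised reads (log axis) of the 10 transferase genes in each library, CON as blue circles and KO as red triangles, with a black bar at each group mean. Gstp1 lies near 24952 reads in CON, while Gstt3 has 24.4. The red points lie above all blue points for Gsta4, Gstt1, Gstt2, Gstt3 and Mgst1 and below them for Gstk1.

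Gsta4 encodes the alpha class enzyme that conjugates 4-hydroxynonenal, an aldehyde formed when membrane lipids are oxidised. The libraries held 536, 730.1 and 1079.7 normalised reads across CON 1 to 3, against 2264, 1596 and 1678 across KO 1 to 3. All 3 KO values lay above all 3 CON values. The rise was 2.36-fold (782 ± 275 to 1846 ± 364; log2 difference of 1.11 with an SE of 0.26, adjusted p = 0.0182). The call was lost without CON 2 (adjusted p = 0.0567), KO 1 (0.0774), KO 2 (0.0556) or KO 3 (0.0502), while the difference stayed between 0.91 and 1.33 over the 6 fits with 1 library left out. KO 1, the library with the most macrophage marker reads, was the highest KO library for Gsta4, as it was for 9 of the 10 members, Gstk1, Gstz1 and Gstp1 included. The part of macrophages in these values was not tested. CON 1 was the lowest CON library for every member but Gstt3. Without CON 1 the difference was lower for every member but Gstt3, which rose to 0.68.

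The other alpha class genes were scarce. Gsta3 averaged 157 ± 59 normalised reads in the CON libraries and 189.7 ± 53.2 in the KO libraries (log2 difference of 0.17 with an SE of 0.28, adjusted p = 0.752). Gsta1 had no reads in CON and at most 1.06 in a KO library. Gsta2 had none in CON and 6.91, 6.61 and 5.29 in KO 1 to 3. Gsta1 and Gsta2 were too low to test. Gsta4 was thus the most abundant alpha class gene of these lenses.

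Gsta4 and Gclc both lie on chromosome 9, with 4 protein-coding genes between them in the order of the GRCm38 assembly. Among these, the F-box gene Fbxo9 was lower in KO (632 ± 112 in CON and 243 ± 110.5 in KO; log2 difference of -1.03 with an SE of 0.28, adjusted p = 0.0372). The fatty acid elongase gene Elovl5 had 561 ± 191 and 1081 ± 169 and was not called (log2 difference of 0.81 with an SE of 0.26, adjusted p = 0.065), although its groups did not overlap. Cilk1 was not called either (log2 difference of 0.20 with an SE of 0.36, adjusted p = 0.771), and Gcm1 had too few reads to test. Beyond Gclc, Lrrc1 was not called (log2 difference 0.24). The genes of this stretch thus differed in both directions. Fbxo9 lost its call without CON 2, CON 3 or any 1 KO library (adjusted p up to 0.123), and under 5 of 8 other settings (adjusted p up to 0.277). Elovl5 was called without CON 3 (adjusted p = 0.0298), with a filter of 3 units and with voom and the library total. The mice were of mixed B6/FVB background, so an effect of the Gclc alleles and one of strain variants linked to them cannot be told apart for genes of this stretch, Gsta4 included.

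Gstp1, the pi class enzyme, had the highest level of the 10 by far, both in normalised reads and per length. It had 18301, 28198 and 28356 normalised reads across CON 1 to 3, against 24970.3, 17559 and 22462 across KO 1 to 3. The group ranges overlapped, with CON 1 and KO 2 the lowest, while CON 2 and CON 3 lay above every KO library. The means were 24952 ± 5760.2 and 21664 ± 3769 (log2 difference of -0.19 with an SE of 0.23, adjusted p = 0.663), and the 95% interval of the difference was -0.70 to 0.33. Reads of Gstp1 are not safely separate from those of its neighbour Gstp2: 51% of the 50-base stretches of Gstp1 transcripts occur unchanged in other transcripts, all of these in Gstp2. Gstp2 had 647 ± 123 and 982 ± 91 normalised reads (log2 difference of 0.51 with an SE of 0.23, adjusted p = 0.177), without overlap between the groups. Its count was 3.13, 2.05 and 2.78% of that of Gstp1 in the CON libraries and 4.35, 5.36 and 4.09% in the KO libraries. Gstp3 had no reads in any library.

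Windows of 300 bases around gene starts were available for 8 of the 10 genes (RefSeq, GRCm38.p6), and 3 are shown to compare the most abundant member with 1 that rose and 1 that missed the threshold. Each runs from 250 bases before to 50 bases after the start, on the strand of the gene. They were searched on both strands for the antioxidant response element that NRF2 binds, the AP-1 site TGANTCA and the dioxin response element TNGCGTG. The first was searched in the form TGACNNNGC only. A stretch can match the first 2 patterns at once, since both begin with TGA. Capitals mark a match. In the Gstp1 window (chr19:4037863-4038162, minus strand) the AP-1 pattern begins 74 bases before the start. With the 2 bases after it, this stretch reads TGAGTCAGC, which differs from TGACNNNGC in 1 base and was not counted as that pattern. Of all 32851 windows, 7.81% hold the AP-1 pattern, 12.4% the antioxidant element in the form searched and 5.07% the dioxin element.
Gstp1: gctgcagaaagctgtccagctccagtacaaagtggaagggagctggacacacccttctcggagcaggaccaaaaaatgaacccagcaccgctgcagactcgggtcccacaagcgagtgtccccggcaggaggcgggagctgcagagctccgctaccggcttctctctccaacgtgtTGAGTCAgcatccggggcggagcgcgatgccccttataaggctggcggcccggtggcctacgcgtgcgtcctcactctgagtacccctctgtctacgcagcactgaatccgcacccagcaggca

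The theta class genes were the scarcest of the 10 in CON. In all 3 of them each KO library exceeded each CON library, as in 16.9% of all tested genes. For Gstt3 this was in part a condition of being tested, since it passed the filter only through its KO libraries. Gstt1, the theta enzyme that dehalogenates small molecules, had 64.4, 97.6 and 129.8 normalised reads across CON 1 to 3, against 433, 273 and 361 across KO 1 to 3. It rose 3.66-fold (97.2 ± 32.7 to 355 ± 79.9; log2 difference of 1.09 with an SE of 0.26, adjusted p = 0.0218). Gstt2 had 77.1, 110.2 and 108 in CON and 277, 257 and 189 in KO, 2.45-fold more, and was not called (log2 difference of 0.70 with an SE of 0.25, adjusted p = 0.0979). For Gstt3 the values were 28.5, 31.5 and 13.3 in CON and 71.4, 100.4 and 93.6 in KO (3.62-fold; log2 difference of 0.64 with an SE of 0.25, adjusted p = 0.13). Behind the CON values of Gstt3 stood 27, 10 and 9 reads. The call of Gstt1 was lost when KO 1 (adjusted p = 0.0814), KO 2 (0.0607) or KO 3 (0.0904) was left out. With voom on the recovered reads and the size factors, its difference was 1.99 and its adjusted p 0.0567. That fit gave 1.36 for Gstt2 and 1.93 for Gstt3, both not called. With voom and the library total, Gstt1 (adjusted p = 0.00889) and Gstt2 (0.0234) were called and Gstt3 was not. With voom and the reads outside crystallins only Gstt1 was called (adjusted p = 0.041).

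No 50-base stretch of Gstt1 transcripts occurs in another gene's transcripts, and 1.15% of those of Gstt2 do. For Gstt3 the share was 20.6%, nearly all with an unnamed locus annotated on the same strand. The 3 theta genes therefore did not share reads with each other at this length. The window at the start of Gstt1 (chr10:75797682-75797981, minus strand) holds none of the 3 patterns, nor do the windows of Gstt3.
Gstt1: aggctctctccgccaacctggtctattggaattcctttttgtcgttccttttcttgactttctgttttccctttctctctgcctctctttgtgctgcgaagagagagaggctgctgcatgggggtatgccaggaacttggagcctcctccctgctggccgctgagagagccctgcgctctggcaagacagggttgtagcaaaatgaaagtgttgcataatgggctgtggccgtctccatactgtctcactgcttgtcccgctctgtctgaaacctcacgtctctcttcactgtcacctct

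The theta genes lie side by side on chromosome 10 in the order Gstt3, Gstt1, Gstt4 and Gstt2. Gstt4 had no reads in any library. The gene next to Gstt2 is Mif, which encodes the cytokine macrophage migration inhibitory factor and was lower in KO (22084 ± 5212 in CON and 9151 ± 2334 in KO; log2 difference of -1.26 with an SE of 0.24, adjusted p = 0.00707). On the other side, next to Gstt3, lies Ddt, which encodes the related enzyme D-dopachrome tautomerase (1126 and 804 on average; log2 difference of -0.38 with an SE of 0.27, adjusted p = 0.4). Further along, Cabin1 (log2 difference -0.03) and Smarcb1 (-0.13) were not called, and Susd2 was lower (log2 difference of -1.43 with an SE of 0.27, adjusted p = 0.00688). At the ends of this stretch, Mmp11, a matrix metalloproteinase gene, averaged 60.1 in CON and 139 in KO with overlap and was not called (log2 difference of 0.76 with an SE of 0.39, adjusted p = 0.242). Ggt5 and Derl3 were too low to test, Derl3 being without reads in CON and at 10.4, 14.4 and 11.1 in KO 1 to 3. Genes around the theta cluster thus lay on both sides of 0, and no test compared them with the theta genes. The calls of Mif and Susd2 held in all 6 fits with 1 library left out. Without a filter both were lost (adjusted p = 0.117 and 0.0704), and that of Mif also with voom and the library total.

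**Figure D2:**
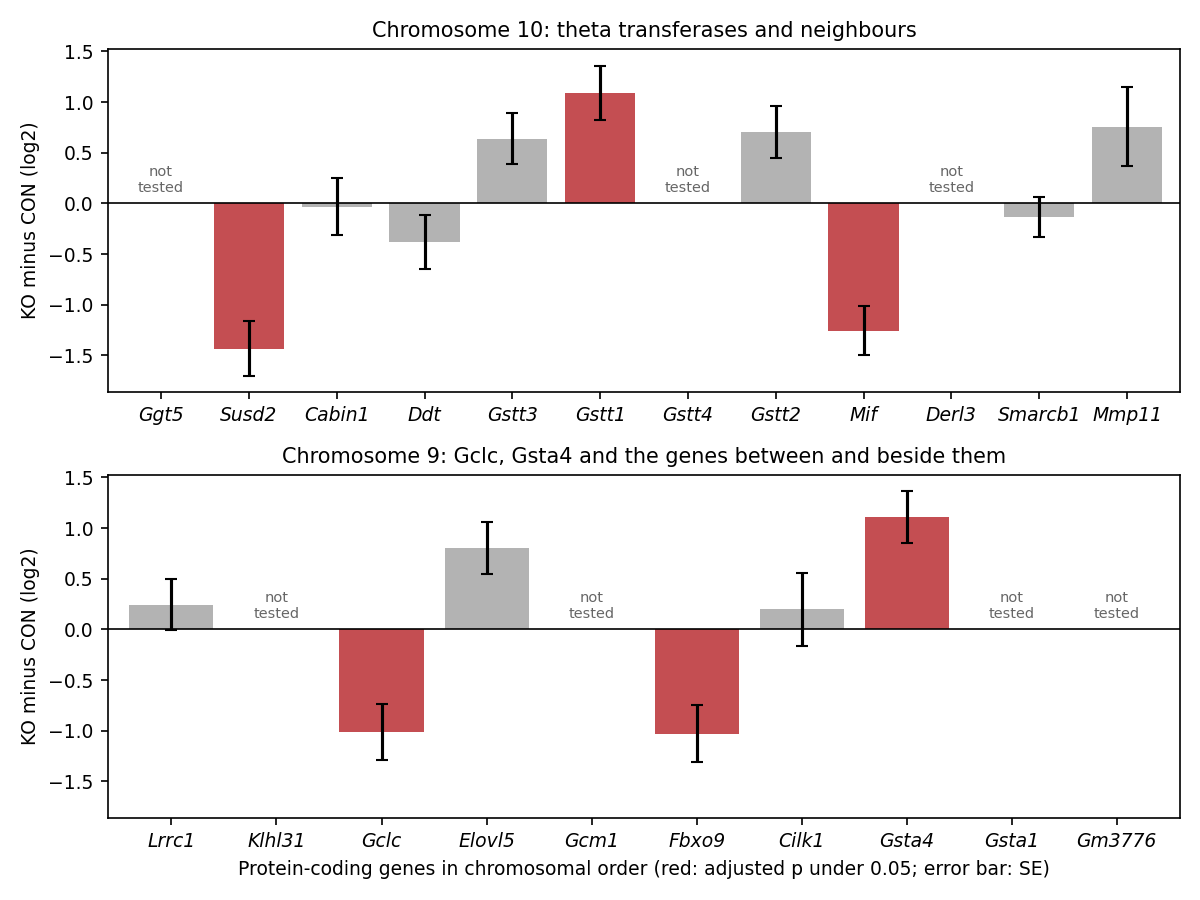
Log2 differences, KO minus CON, with SE, of protein-coding genes in chromosomal order (no distances shown), red where the adjusted p was under 0.05. Above, the theta genes stand at 0.64, 1.09 and 0.70 between Ddt at -0.38 and Mif at -1.26. Below, Gclc and Fbxo9 lie under 0 and Gsta4 over it.

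The omega, zeta and kappa genes gave no call. Gsto1, whose omega class product reduces dehydroascorbate and methylated arsenic, had 485, 1303 and 1094 normalised reads across CON 1 to 3, against 1436, 1078 and 1188 across KO 1 to 3 (log2 difference of 0.39 with an SE of 0.30, adjusted p = 0.45). The groups overlapped. CON 1, the lowest CON library for every member but Gstt3, lay far below the other 5 libraries here, and without it the difference was 0.03. Its neighbour Gsto2 had 17.9, 15.7 and 7.37 in CON and 46.6, 27.1 and 23.8 in KO without overlap, too low to test. Gstz1, the zeta enzyme that isomerises maleylacetoacetate in tyrosine breakdown, had 1036, 1589 and 2230.2 in CON and 1505, 1199 and 1186 in KO. CON 3 held the highest value, the group ranges overlapped and the mean was 0.801-fold that of CON (log2 difference of -0.24 with an SE of 0.27, adjusted p = 0.624). Of its 50-base stretches, 17.2% occur on the opposite strand of Pomt2 transcripts, and whether counting used strand is not given in the sources used here.

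Gstk1, whose kappa class product is found in mitochondria and peroxisomes rather than in the cytosol, was the only member with all KO libraries below all CON libraries. There were 207, 415 and 267 normalised reads across CON 1 to 3, against 157, 144 and 134 across KO 1 to 3. The KO values lay close together, whereas CON 2 stood well above the other CON libraries. The KO mean was 0.49-fold that of CON (145 ± 11.5 and 296 ± 107; log2 difference of -0.59 with an SE of 0.27, adjusted p = 0.182), and without CON 2 the difference was -0.41. The 95% interval was -1.17 to -0.01.

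Of the microsomal genes, Mgst1 was higher in every KO library than in any CON library without being called. It encodes the membrane transferase of the endoplasmic reticulum and the outer mitochondrial membrane. The values were 1096, 1885 and 2283 normalised reads across CON 1 to 3, against 3553, 2885 and 2787 across KO 1 to 3, 1.75-fold more in KO (1755 ± 604 and 3075 ± 417; log2 difference of 0.80 with an SE of 0.26, adjusted p = 0.071). CON 3 came closest to the KO range. Mgst1 was called when CON 3 was left out (difference 1.00, adjusted p = 0.0375), and without CON 1 the difference was 0.52 (adjusted p = 0.0971). Mgst3, which belongs to the same membrane family, had 276, 636 and 406 in CON and 493, 344 and 412 in KO. Here the groups overlapped fully, and the interval of the difference was -0.63 to 0.59 (adjusted p = 0.977).

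The Mgst1 window shown (chr6:138140277-138140576, plus strand) holds the antioxidant response pattern on its minus strand, beginning 56 bases before the start. It was the only one of the 11 windows of the 8 genes with this pattern, against 12.4% of all windows, and none held the dioxin pattern. Near matches, such as that in the Gstp1 window, were not counted. A match is a description of these letters and not a measured binding site.
Mgst1: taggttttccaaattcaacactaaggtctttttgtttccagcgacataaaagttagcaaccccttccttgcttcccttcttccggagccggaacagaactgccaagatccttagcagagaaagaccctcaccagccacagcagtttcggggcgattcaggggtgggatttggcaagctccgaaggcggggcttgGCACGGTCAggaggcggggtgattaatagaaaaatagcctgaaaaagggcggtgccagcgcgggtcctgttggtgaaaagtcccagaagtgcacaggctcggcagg

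**Figure D3:**
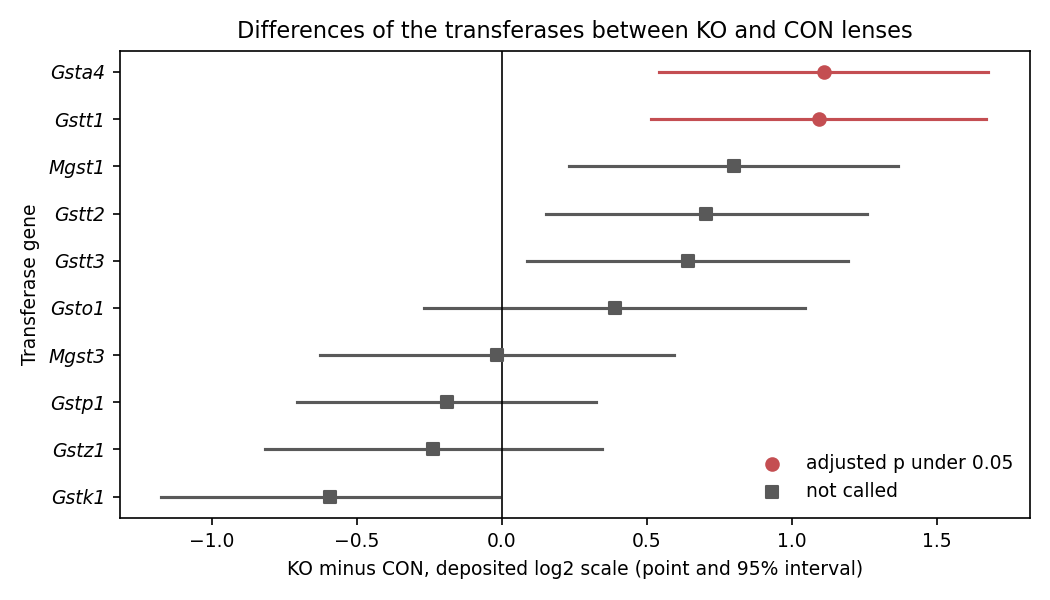
Log2 difference, KO minus CON, of each transferase with its 95% interval from limma, red circles for an adjusted p under 0.05 and grey squares for the rest. The differences run from -0.59 for Gstk1 to 1.11 for Gsta4.

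Per kilobase of exon, the order of the 10 genes differed between the groups. In CON, Gstp1 stood at 30392 normalised reads per kilobase, above Mgst1 (957), Gsto1 (813), Gsta4 (800.4) and Gstz1 (753). Mgst3 and Gstk1 followed at 400.1 and 319, and Gstt1, Gstt2 and Gstt3 at 65.9, 43.1 and 12.9. From Mgst1 to Gstk1 each range overlapped that of the next gene, as did those of Gstt1 and Gstt2, so these neighbours are not separated in CON. In KO, Gsta4 (1889) and Mgst1 (1677) overlapped behind Gstp1 (26387). Below them the KO ranges of neighbours in the order were separate, from Gsto1 (1044) and Gstz1 (603) down to Gstt3 (46.9). Gstk1, above Gstt1 in CON, was below it in KO (156 and 241).

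Gstp1 made up 88.1% ± 1.25 (SD, n = 3) of the summed level per kilobase of the 10 genes in CON and 81% ± 1.63 (SD, n = 3) in KO. Without Gstp1, Gsta4 and Mgst1 together took most of the rest in KO. Of this remainder, the share of Gsta4 was 19.4% ± 3.3 in CON and 30.6% ± 1.21 in KO. That of Gstz1 was 18.1% ± 2.43 and 9.84% ± 0.272. Gstk1 took 7.84% ± 1.97 in CON and 2.56% ± 0.245 in KO. Shares of 1 library do not depend on how libraries are scaled to each other. Since they add up to a whole, a higher share of 1 gene lowers the others.

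**Figure D4:**
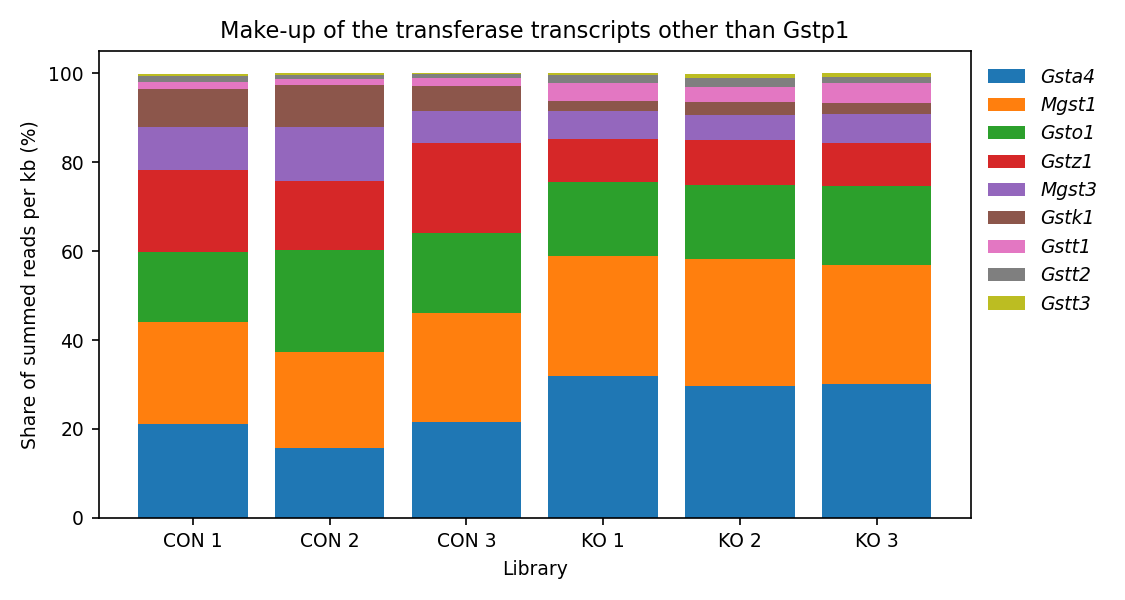
Share (%) of each transferase other than Gstp1 in their summed normalised reads per kilobase of exon, one bar for each of the 6 libraries. Gsta4 (blue) makes up 15.7% to 21.6% in CON and 29.7% to 32% in KO, and Gstk1 (brown) and Gstz1 (red) are narrower in KO.

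Against the 7 mu class genes Gstm1 to Gstm7, the balance of transcripts differed between the groups. The summed level per kilobase of the 10 members was 1.04, 1.01 and 1.01 times that of the mu class in CON 1 to 3, against 2.56, 3.18 and 3.27 times in KO 1 to 3. Most of the members' sum was Gstp1, and most of the mu class sum was Gstm1 (19598 per kilobase in CON and 4694 in KO) and Gstm5 (8864 and 4522). The members' sum was 34556 ± 8370.0 per kilobase in CON and 32529 ± 5404 in KO, and that of the mu class 33961 ± 8764 and 11095 ± 3253. In CON the 2 sums were thus about equal, and in KO the mu class sum was lower while the ranges of the members' sum overlapped. Mu class paralogs share sequence, so their reads may be split between them and the sum is the safer value.

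The other 20 transferase genes examined included 13 that could be tested. Of these, 6 fell, all of the mu class, and 1 rose (median log2 difference -0.57, against 0.03 over all genes). Those with the smallest p were Gstm1 (-2.07), Gstm7 (-1.34), Gstm6 (-1.76) and Gstm4 (-0.97). Leaving out 1 library lowered the falls to 3 (CON 2, CON 3, KO 2 or KO 3) or 4 (KO 1), and they were 3 with voom and the library total and 0 without a filter. The 1 that rose was Ltc4s, which encodes leukotriene C4 synthase, a relative of the microsomal transferases made by macrophages and mast cells. It had 12.7, 126 and 64.9 normalised reads across CON 1 to 3, against 473, 248 and 187 across KO 1 to 3 (log2 difference of 1.19 with an SE of 0.34, adjusted p = 0.0444). Its call was lost without CON 1, CON 3 or any 1 KO library (adjusted p up to 0.153), and under 6 of 8 other settings (adjusted p up to 0.274). Like the macrophage markers, it was highest in KO 1, and their part was not tested. The prostaglandin synthase gene Hpgds, a sigma class transferase, was not called (log2 difference of 0.41 with an SE of 0.31, adjusted p = 0.433).

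Of the 3 glutathione synthesis genes, Gclc was called lower and the most abundant, Gss, which encodes glutathione synthetase, was not called (42568 ± 4344 and 30176 ± 4519; log2 difference of -0.50 with an SE of 0.20, adjusted p = 0.147). Genes for the steps after conjugation gave no call in the reported fit. Of 12 genes that turn glutathione conjugates into mercapturates, 5 were tested with limma and 0 called (0 at an unadjusted p under 0.05 as well, and 0 with voom and the size factors). Lap3, a leucine aminopeptidase, was the most abundant (2514 ± 197 in CON and 2067 ± 250.4 in KO; log2 difference of -0.27 with an SE of 0.20, adjusted p = 0.437). Of 9 conjugate exporter genes, 5 were tested with limma and 0 called. At an unadjusted p under 0.05 limma gave 1 in each direction, and 0 were called with voom and the size factors. The transporter gene Abcg2 was the most abundant (2452 ± 607 and 1802 ± 289; log2 difference of -0.39 with an SE of 0.23, adjusted p = 0.312). With voom and the library total, 2 mercapturate genes and 1 exporter gene were called higher. In the tyrosine pathway of Gstz1, the upstream genes Tat, Hpd and Hgd had no reads in any library, and Fah, the next step, was not called (log2 difference of -0.24 with an SE of 0.30, adjusted p = 0.675).

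Genes that clear aldehydes, glyoxals and epoxides, some of which transferases also act on, differed in both directions. Of 16 tested, 2 rose and 2 fell (median log2 difference -0.31). Ephx1, the microsomal epoxide hydrolase, rose from 457 ± 229 to 2092 ± 126 (log2 difference of 1.93 with an SE of 0.28, adjusted p = 0.00168), and this call held whichever library was left out, though not without a filter (adjusted p = 0.0704). Ptgr1, a reductase of unsaturated aldehydes, rose from 139 ± 92.5 to 494 ± 91.2 (log2 difference of 1.25 with an SE of 0.30, adjusted p = 0.0213). The aldo-keto reductase gene Akr1b8 fell (log2 difference of -1.0 with an SE of 0.22, adjusted p = 0.0143), as did the aldehyde dehydrogenase gene Aldh7a1 (log2 difference of -0.65 with an SE of 0.19, adjusted p = 0.049). The number that rose was 1 without CON 2 or any 1 KO library. The number that fell was 5 without CON 1, 1 without CON 2 or CON 3 and 0 without KO 2 or KO 3. With voom and the library total, 7 rose and 0 fell, and Aldh7a1 turned positive (0.15). The call of Aldh7a1 was lost without CON 2, CON 3 or any 1 KO library (adjusted p up to 0.225), and under 7 of 9 other settings (adjusted p up to 0.473).

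Among 8 tested regulators of transferase genes, 1 was called higher and 1 lower. Nfe2l2, which encodes NRF2, had 816, 762 and 516 normalised reads across CON 1 to 3, against 1074, 1174 and 1089 across KO 1 to 3, without overlap and without a call (log2 difference of 0.58 with an SE of 0.23, adjusted p = 0.129). The gene of its small partner Maff passed the threshold (36.2 ± 29.7 to 252 ± 83.2; log2 difference of 1.35 with an SE of 0.31, adjusted p = 0.0158). Maff passed the filter on low values only through its KO libraries (60, 13 and 3 reads in CON), so it had to differ to be tested. Its call was lost under 4 of 8 other settings (adjusted p up to 0.15). These were no filter, log2 of normalised reads, and voom with the size factors or with the reads outside crystallins. Nr1i3, which encodes the xenobiotic receptor CAR, fell (472 ± 117 to 133 ± 5.6; log2 difference of -1.15 with an SE of 0.26, adjusted p = 0.0143). Leaving out KO 2 or KO 3 ended the calls of Maff and Nr1i3 (adjusted p at most 0.0783 and 0.0739), so that both counts were then 0, while 2 were higher without CON 1 and 2 lower without CON 3. The dioxin receptor gene Ahr had at most 8.44 normalised reads in a CON library and was not tested.

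Among tested genes with a symbol, those whose deposited values followed Gsta4 most closely over the 6 libraries were Cck (Pearson r 0.997), Pkp4 (0.995) and Ldhb (0.992). Closest to Gstt1 were Ndrg2 (0.998), Zfp87 (0.997) and Nmrk2 (0.996). These values describe 6 libraries in 2 groups that share their depth and scaling, over which many genes correlate. Both members had been called, so the genes closest to them were bound to differ between the groups in the same direction. Cck averaged 24.8 normalised reads in CON and 89 in KO, and passed the filter on low values only through its KO libraries.

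The direction of some members depended on how libraries were scaled. With voom and the library total as scale, all genes had a median of 0.86, 6 members were called higher, and Gstp1 (0.67), Gstz1 (0.57) and Mgst3 (0.92) turned from negative to positive. Relative to that median, Gsta4, the theta genes (2.13 to 2.77) and Mgst1 (1.72) remained above it, and Gstp1, Gstz1 and Gstk1 (-0.06) below. With the reads outside crystallins as library size, the median of all genes was 0.23 and Mgst1 was called as well (1.12, adjusted p = 0.0242). Without a filter on low values neither Gsta4 (adjusted p = 0.147) nor Gstt1 (0.0903) was called.

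**Figure D5:**
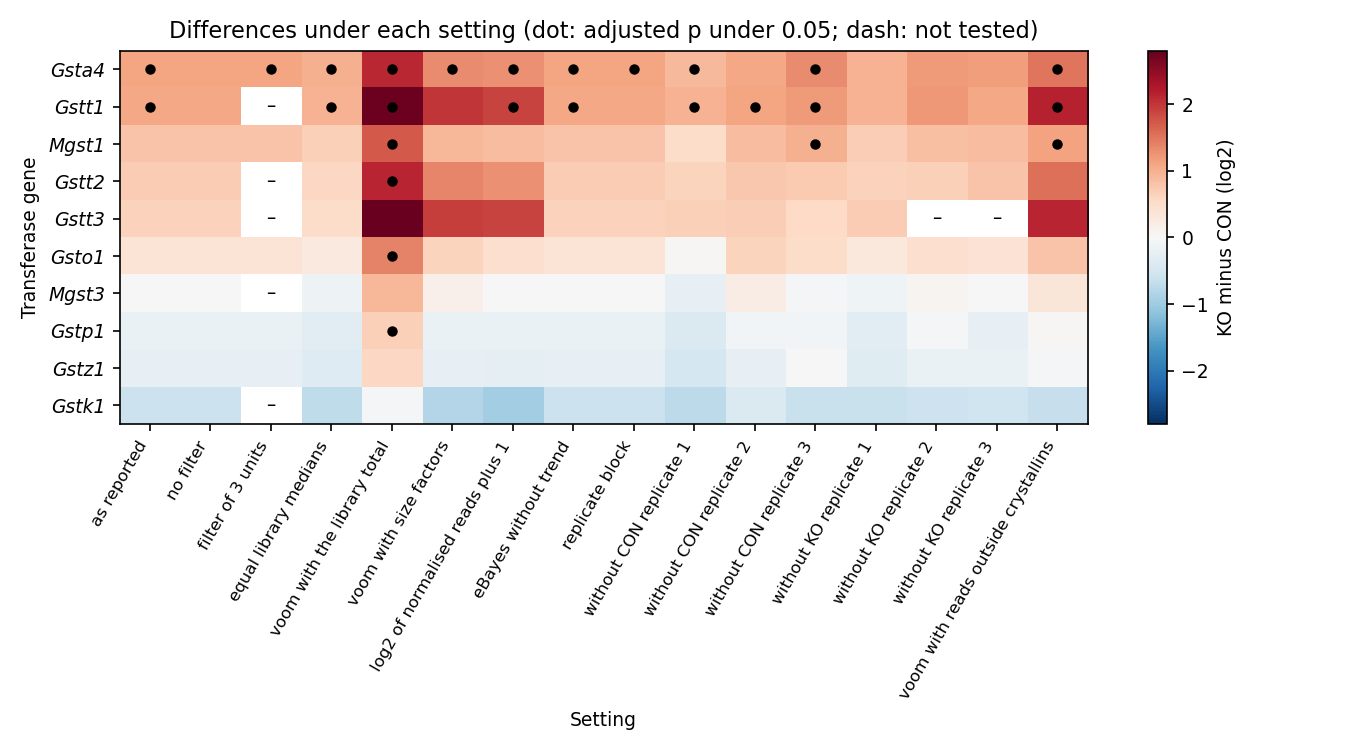
Log2 difference, KO minus CON, of each transferase (rows) as reported and under 15 other settings (columns), red for higher and blue for lower in KO. A dot marks an adjusted p under 0.05 and a dash a gene not tested. Gsta4 and the theta genes are red in every column where they were tested, from 0.52 upward, and Gstk1 is below 0 in all 14 of its other columns, down to -0.97.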

How the data were processed

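RNA of newborn lenses was measured in 3 KO and 3 CON libraries, grouped by their titles. Per the submitters' processing notes, the authors used Trimmomatic, HISAT2 2.1.0, the mm9 genome, featureCounts 1.6.4 and, with 2.11.0.6 as its version, DESeq2. The deposited log2 values were made by the authors with the variance-stabilising transformation of DESeq2. This transformation was inverted per library to whole reads (tolerance 0.1, met by 100% of values, largest distance 0.0199). The size factors found (0.3178 in CON 2 to 1.892 in KO 3) equal those of the median-of-ratios method.

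The groups were compared by limma 3.58.1 under R 4.3.3 (lmFit and trended eBayes) on the deposited values of genes whose mean lay at least 1 unit above the lowest value, with Benjamini-Hochberg adjustment. In simulated data with 3 libraries per group (11623 genes in the fit), 7 of 100 true differences of 1 log2 unit were recovered. Of 100 differences of 2 units, 51 were recovered, and 2 of 60 calls were false. No other genes were changed there, while 6.91% of the tested genes were called higher and 4.39% lower in the data. The adjusted p depends on this share, so the recovery may differ in the data. The alternatives were other filters, scalings, transformations and variance models, a replicate block and each library left out. Scaling by reads outside crystallins was added after the data were seen. The members, lists and tests were chosen with earlier results of these data known, as were the neighbouring genes, taken by position. The text names all members, Gclc, called genes of each list of related genes (at most 4 per direction, by smallest p), the most abundant tested gene of such a list with fewer than 2 calls, and the 3 genes most correlated with each called member. Markers of cell types are given as sums and counts. Other genes were named after their values were seen. Symbols (25275 identifiers), gene order and promoter windows came from RefSeq (GRCm38.p6), and exon lengths and transcript stretches from GENCODE M21.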

Additional observations from a re-analysis of the deposited data

How the results depend on the processing

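The number of members called higher was 2 as reported, 0 without a filter, 1 with a filter of 3 units (which left Gstt1, Gstt2, Gstt3, Gstk1 and Mgst3 untested), 6 with voom and the library total and 1 with voom and the size factors. With 1 library left out it ran from 0 (without KO 1, KO 2 or KO 3) to 3 (without CON 3), and it was 1 without CON 2. No member was called lower under any of the 15 alternatives. Of all genes, 793 were called higher and 504 lower as reported. The higher calls were 288 without a filter, 340 with a filter of 3 units, 3314 with voom and the library total and 421 with voom and the size factors. The lower calls were 69 without a filter, 85 with voom and the library total and 292 with voom and the reads outside crystallins. With equal library medians they were 643 and 717. With 1 library left out the higher calls ran from 328 (without KO 2) to 1106 (without CON 1) and the lower calls from 170 to 857. Equal replicate numbers did not deviate together (residual correlations -0.364, -0.128 and -0.14), while CON 1 with KO 2 reached 0.329. Residuals around the mean of 3 libraries per group cannot show whether libraries share a litter or a batch. With the replicate block, 1 member was called higher (Gstt1: adjusted p = 0.0509), and 605 genes were higher and 309 lower.

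Signs changed for 3 members that were not called as reported. Gstp1 stood at 0.67 with voom and the library total (adjusted p = 0.00616) and 0.037 with the reads outside crystallins. Gstz1 stood at 0.57 with the library total and 0.003 without CON 3, and over the 6 fits with 1 library left out ran from -0.493 to 0.003. Mgst3 stood at 0.92 with the library total, 0.14 with voom and the size factors, 0.33 with the reads outside crystallins, 0.21 without CON 2 and 0.08 without KO 2, and with 1 library left out ran from -0.228 (without CON 1) to 0.21. The cause was not tested. Without KO 2 or KO 3, Gstt3 fell under the filter and was not tested. Depth limits the theta genes most, since CON 2 held 31 reads of Gstt1, 35 of Gstt2 and 10 of Gstt3.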
